A study of Mus musculus with 12 samples.

Results

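Of the 6 mouse pancreatic ductal adenocarcinoma cell lines in the series, 2 had little transcript of the epithelial adhesion gene Cdh1 (E-cadherin) before Cre, and the response of these lines, 52419 and 53369, to Cre is described here. They were selected on the parental level of Cdh1, under 20 CPM (reads per 1000000 after the authors' scaling of library size), so that level is no result. Cdh1 stood at 0.372 CPM in parental 52419 and 17.5 CPM in parental 53369, just inside the limit, and the nearest line outside it, 53105, stood at 272 CPM. The members are 4 of the 12 libraries, the parental and the Cre library of each line. Parental cells are labelled wild type. Cre cells are labelled JAK1 knockout and were made by infecting the parental cells with the retrovirus pBabe-Cre-puro and selecting them in puromycin at 2, 4 and 7 µg/ml. Both kinds of cell were grown in DMEM with serum. The labels do not say whether the Cre cells are a pool or a clone, and they name no culture infected with an empty vector, so infection, selection, time in culture and loss of JAK1 cannot be told apart. With 1 library per line and condition, every p-value measures the spread between lines, not between repeats of a line.

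JAK1 is a tyrosine kinase bound to the receptors of interferons and of many interleukins. On binding of type I interferon it phosphorylates STAT proteins, which join IRF9 and bind the interferon-stimulated response element in front of antiviral genes, while receptors built on gp130, such as the oncostatin M receptor, signal through JAK1 mainly to STAT3. Many interferon-induced genes, STAT2, IRF7 and IRF9 among them, are themselves parts of the pathway.

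The 4 libraries held 12.8 and 12.6 M reads in genes for parental and Cre 52419 and 13.1 and 14.2 M for parental and Cre 53369 (M, 1000000 reads). Jak1, the targeted gene, was at 125 CPM in parental and 104 CPM in Cre 52419, and at 165 and 145 CPM in 53369. Its log2 change over both lines was -0.22 (SE 0.15, 95% confidence interval -0.56 to 0.11), limma adjusted p = 0.990. Reads from exons outside a deleted stretch still count, so this gene total does not check the deletion. A transcript of the Rosa26 locus, Gt(ROSA)26Sor, was at 9.96 and 8.53 CPM in parental and Cre 52419 and at 3.37 and 111 CPM in 53369, and its part in any difference between the lines was not tested.

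The label mesenchymal-like was checked against markers in the parental libraries. Of 28 epithelial genes, 20 were lower in both lines than in all 4 other lines. These include Cdh1, whose place was fixed by the selection. In 53369 some keratins were still high, Krt8 at 776 CPM, Krt18 at 573 CPM and Krt19 at 278 CPM. Of 17 mesenchymal genes 7 were higher in both than in all 4 others (Zeb2, Snai1, Prrx1, S100a4, Sparc, Mmp2 and Axl), while Vim, Zeb1, Twist1, Cdh2 and Fn1 overlapped with the other lines. The lines are therefore called Cdh1-low below. The share of all genes tested that lay below or above all 4 other lines was not counted beside these markers. Leukocyte markers summed to between 23.4 and 41.3 CPM in the 4 libraries, nearly all of it Cd14 and Cd68, with Ptprc (CD45) at no more than 0.231 CPM and Adgre1 at 0. Endothelial markers summed to between 9.64 and 15.1 CPM, mostly Egfl7, with Tie1 at 0. Fibroblast and stellate markers summed to 195 and 154 CPM in parental and Cre 52419, and to 2203 and 1291 CPM in 53369, where most of it was collagen I and III.

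Setting Cre beside parental cells of the same line shows which transcripts differ once JAK1 is meant to be gone in lines of low Cdh1. The genes lower in both lines were led by interferon-stimulated genes, with the STAT3-linked genes Osmr, Socs3, Bcl3 and Cebpd, and with Crabp1, Dmp1 and Dkk2, beside them. In such bulk samples fewer cells that express a gene and less RNA per cell cannot be told apart. Of 12610 genes tested, 78 were lower by 2-fold or more in both pairs (0.619%) and 5 were higher (0.0397%), the fold being taken on log2(value + 0.5), a scale that understates the change of low genes. Of the 78, 27 belonged to the lists of interferon effectors, nucleic acid sensors, interferon regulatory factors and class I presentation. Another 5 were in the lists of STAT3 targets and cytokine receptors, and 46 in none of these. The lists do not hold every interferon-induced gene, so the 46 may include more of them. The 78 had a median log2 change of -1.86 in 52419 and -1.38 in 53369, and 61 of them had the larger drop in 52419. In 73 of the 78, the higher library of each pair held at least 20 reads.

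The size of the response differed between the lines. In 52419, 378 genes were at least 2-fold lower and 64 higher, and in 53369, 148 were lower and 80 higher. The 78 shared genes are thus 20.6% of the lower genes of 52419 and 52.7% of those of 53369, while the 5 shared higher genes are 7.81% and 6.25%. Without a limit on size, 3919 genes were lower in both pairs (31.1%) and 4227 higher in both (33.5%), the shares to set beside each list counted below. Across genes the changes of the 2 lines had a Pearson correlation of 0.421 and a Spearman correlation of 0.380, a description over genes that are not independent replicates. In 4 genes both lines moved by 2-fold or more in opposite directions. Igfbp3, which binds insulin-like growth factors, was at 761 and 241 CPM in 52419 and at 23.7 and 57.6 CPM in 53369, and the other 3 were Trabd2b, Slc7a8 and Mme.

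**Figure D1:**
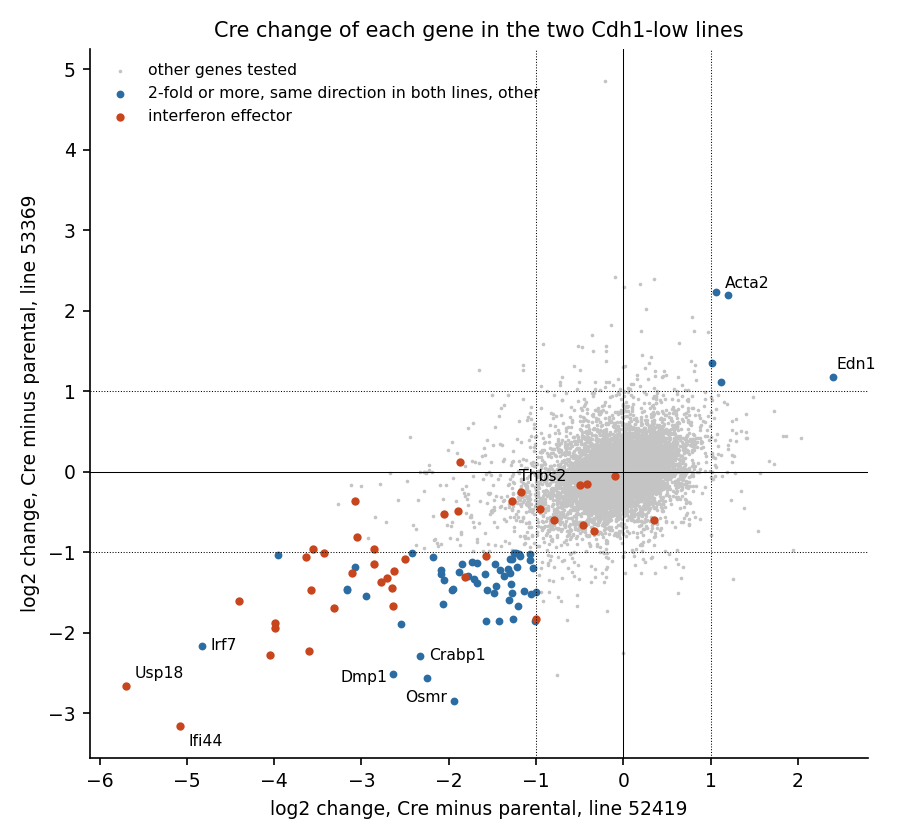
Log2 change of each of the 12610 genes tested, Cre minus parental on the log2(CPM + 0.5) scale, in line 52419 (x axis) and line 53369 (y axis), with dotted lines at 2-fold. Red points are the 39 interferon effectors, blue points the other genes with changes of 2-fold or more in the same direction in both lines, and the interferon effectors extend farthest to the lower left, with Ifi44 at -5.08 and -3.16. The single grey point near the top is the Rosa26 transcript, at 4.85 in 53369.

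No gene passed the adjusted threshold in the main test. This was limma-trend over all 12 libraries with cell line as block and a Cre term of its own for the Cdh1-low lines, with Benjamini-Hochberg adjustment over 12610 genes. The smallest adjusted p was 0.0864, that of Ifi44. The spread behind each SE and p is pooled over all 6 lines. A gene with few reads in the other 4 lines varies little there on the log2 scale, which can narrow its SE. This holds for Ifi44, Crabp1 and Dmp1, and Ifi44 changed by -5.08 in 52419 and -3.16 in 53369. At an unadjusted p under 0.05 limma had 472 lower genes (3.74%) and 222 higher genes (1.76%). On the recovered read counts, edgeR's quasi-likelihood test called 1 gene lower (Crabp1) and 0 higher, and DESeq2 called 57 lower (0.452%) and 7 higher (0.0555%). The DESeq2 calls below are thus calls of an alternative test that the main test did not share. Of its 57 lower genes, 39 were among the 78 and 19 were in the interferon, sensor, regulatory factor or class I lists.

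Interferon effector genes, which restrict viruses or tune the interferon response, made the largest group. Of 52 listed, 39 were tested; 37 of these were lower in both pairs (94.9%, against 31.1% of all genes) and 22 were lower by at least 2-fold in both (56.4%, against 0.619%). Their median log2 change was -2.66 in 52419 and -1.06 in 53369, where all genes tested had medians of 0.01 and 0.00. By limma's unadjusted p 32 of the 39 were lower and 0 higher, and DESeq2 called 15 lower. The list was drawn up with earlier results of these data known, so its count is no independent evidence of its direction. Summed over the list, the effectors came to 1584 CPM in parental and 536 CPM in Cre 52419, and to 1497 and 955 CPM in 53369. The other 4 lines lay between 910 and 1104 CPM as parental cells and between 791 and 1076 CPM after Cre. By these sums both parental Cdh1-low libraries were above the other parental lines. After Cre, 52419 was below, and 53369 among, the other Cre libraries. The place of 53369 depends on Ifitm3, at 431 CPM in its parental and 208 CPM in its Cre library. Ifitm3 was at 0.375 to 90.6 CPM in the other 4 parental lines, so a general excess of effectors in parental 53369 is not shown. In the Cre libraries of those 4 lines Ifitm3 was at 0.179 to 32.0 CPM. The place of Cre 53369 among them thus also rests on this gene.

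The starts of several of these genes carry the sequence that the complex of STAT proteins and IRF9 binds, and 4 are printed to show where it lies. Shown are the 200 bases before the RefSeq start of the gene, read 5′ to 3′ in the direction of transcription, from RefSeq on GRCm38.p6. Capitals mark every match to GAAANNGAAA, the core of the interferon-stimulated response element, on either strand, with overlapping matches joined.
Isg15 (chr4:156200819-156201018, minus strand): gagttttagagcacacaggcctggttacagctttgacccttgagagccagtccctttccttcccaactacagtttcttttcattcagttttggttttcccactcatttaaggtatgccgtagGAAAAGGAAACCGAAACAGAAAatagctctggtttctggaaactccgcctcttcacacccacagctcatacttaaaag
Ifit1 (chr19:34640689-34640888, plus strand): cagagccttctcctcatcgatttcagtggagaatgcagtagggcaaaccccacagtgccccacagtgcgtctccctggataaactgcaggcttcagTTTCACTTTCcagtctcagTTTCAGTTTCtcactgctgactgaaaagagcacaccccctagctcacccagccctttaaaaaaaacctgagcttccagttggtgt
Rsad2 (chr12:26456453-26456652, minus strand): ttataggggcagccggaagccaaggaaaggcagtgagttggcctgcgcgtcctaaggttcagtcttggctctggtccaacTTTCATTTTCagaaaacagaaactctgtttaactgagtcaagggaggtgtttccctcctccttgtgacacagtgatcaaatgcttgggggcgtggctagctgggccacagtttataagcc
Igtp (chr11:58199356-58199555, plus strand): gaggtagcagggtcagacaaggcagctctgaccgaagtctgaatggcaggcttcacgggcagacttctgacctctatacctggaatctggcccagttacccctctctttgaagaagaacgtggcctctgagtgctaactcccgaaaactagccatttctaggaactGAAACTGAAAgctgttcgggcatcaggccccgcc

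Counted to the end of the match nearer the start, the 3 overlapping matches of Isg15 lay 69, 63 and 57 bases before it, the 2 of Ifit1 95 and 76 bases, and the single matches of Rsad2 and Igtp 111 and 25 bases. The counts that follow take the whole window of the table, from 250 bases before to 50 after the start, which is longer than the stretch printed. In this window a match was found in 3.99% of the 27025 genes with a promoter in the table and in 3.54% of the 9685 tested genes with one. Of the 56 shared lower genes with a promoter entry, 16 held it (28.6%), and of the 32 tested effectors with an entry 16 did (50%). Among the 37 shared lower genes outside the interferon, sensor, regulatory factor and class I lists, 4 held it (10.8%). The lists do not hold every interferon-induced gene, so this share is not that of genes unrelated to interferon. The windows of Ifi44, Irf7, Irf9, Xaf1 and Oasl2 hold no exact match to these letters. This says nothing about sites elsewhere, or about sites in the windows whose letters differ slightly.

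Ifi44 (chr3:151730922-151749910 on GRCm38, as are the positions of other genes below), an interferon-induced protein, was at 24.2 CPM in parental and 0.231 CPM in Cre 52419 (325 and 3 reads), and at 8.41 and 0.50 CPM in 53369 (110 and 7 reads). Its log2 change over both lines was -4.12 (SE 0.43), limma adjusted p = 0.0864, and DESeq2 adjusted p = 9.62e-06. Both Cre libraries were far below both parental ones. Usp18, the protease that removes ISG15 from proteins and damps interferon receptors, was at 41.5 and 0.307 CPM in parental and Cre 52419 and at 3.14 and 0.0714 CPM in 53369, the last value being 1 read. Its log2 change was -4.18 (SE 0.67), limma adjusted p = 0.116. Where a Cre library holds so few reads, the fitted change depends on the pseudocount.

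Isg15, the ubiquitin-like protein that USP18 removes, was at 24.4 and 2.38 CPM in 52419, 10.2-fold lower, and at 15.9 and 6.36 CPM in 53369, 2.50-fold lower. Ifit1, which binds viral RNA, was at 20.9 and 2.61 CPM in 52419 and at 28.1 and 10.5 CPM in 53369, 7.99-fold and 2.67-fold lower. Rsad2 (viperin), which makes an antiviral nucleotide, went from 0.966 to 0.231 CPM in 52419, on 13 and 3 reads, and from 4.59 to 0.929 CPM in 53369, 4.94-fold lower. Igtp, a GTPase acting on intracellular pathogens, was 16.1-fold lower in 52419, from 14.9 to 0.922 CPM, and 2.33-fold lower in 53369, from 3.82 to 1.64 CPM. The 4 genes whose promoters are shown were chosen after their values were seen. Their drop in both pairs is therefore no test of a link to the motif. DESeq2 called Isg15 (adjusted p = 0.0436) and Igtp (adjusted p = 0.0211) but not Ifit1 (adjusted p = 0.0755), and gave no adjusted p for Rsad2.

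Xaf1, an interferon-induced promoter of cell death, was 20.8-fold lower in 52419, from 38.4 to 1.84 CPM, and 10.3-fold lower in 53369, from 3.67 to 0.357 CPM, limma adjusted p = 0.0943. Oasl2, of the 2′-5′ oligoadenylate synthetase family, was 18.9-fold and 4.45-fold lower, and Ifit3 26.8-fold and 4.32-fold lower. Ifit3 has a near-identical neighbour, Ifit3b, and reads between them may be split, as they may be for Tgtp1, Gbp2b and Gvin1. Mx2, Cmpk2 and Gvin1 had 0 reads in Cre 52419, where they were at least 24.8-fold, 5.48-fold and 16.1-fold lower than in parental cells against a floor of 3 reads. The abundant Ifitm3, which blocks virus entry, was at 316 and 106 CPM in 52419 and at 431 and 208 CPM in 53369, with DESeq2 adjusted p = 0.00162, and Bst2 (tetherin) was 7.54-fold and 2.25-fold lower. The change was not uniform over the list. Ifitm2 was 1.33-fold and 1.11-fold lower (limma adjusted p = 0.939), and Irgm1 was 3.72-fold lower in 52419 and 1.08-fold higher in 53369, while Adar, Eif2ak2 and Trim25 were 1.95 to 2.43-fold lower in 52419 and 1.19 to 1.39-fold lower in 53369.

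**Figure D2:**
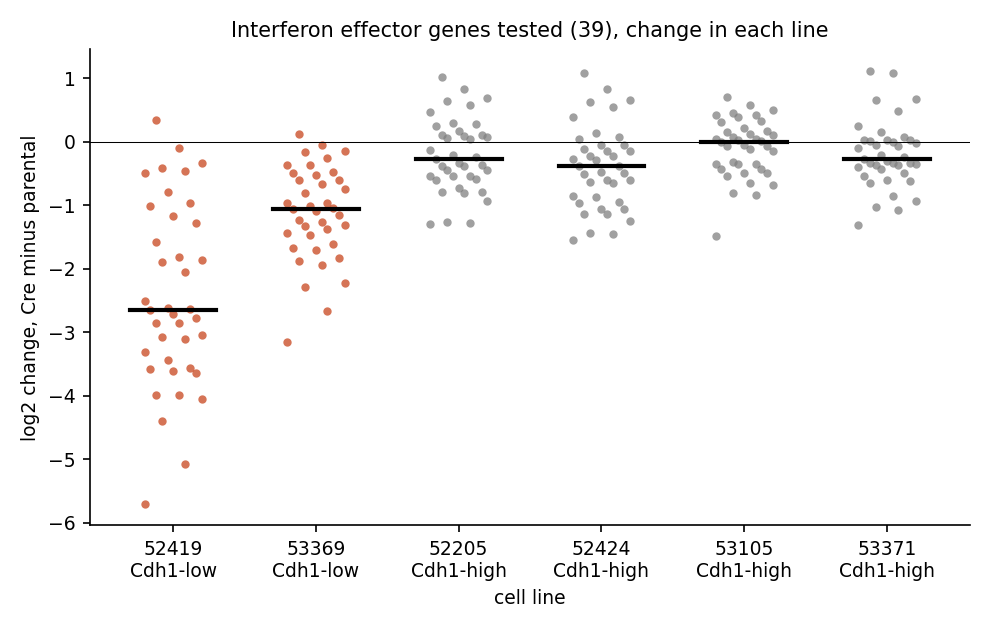
Log2 change, Cre minus parental, of the 39 interferon effectors tested in each of the 6 lines, 1 point per gene, with a black bar at the median. The medians are -2.66 in 52419 and -1.06 in 53369, against -0.27, -0.39, 0.00 and -0.27 in the Cdh1-high lines 52205, 52424, 53105 and 53371.

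Some transcription factors of the pathway were lower as well. Irf7 (chr7:141263183-141266499), the regulator that amplifies type I interferon production, was at 44.2 and 1.08 CPM in parental and Cre 52419 (595 and 14 reads) and at 5.28 and 0.786 CPM in 53369 (69 and 11 reads). It was 41.1-fold and 6.72-fold lower, with a log2 change of -3.50 (SE 0.51), limma adjusted p = 0.103 and DESeq2 adjusted p = 1.54e-08. Irf9, the DNA-binding partner of STAT2, was 8.14-fold lower in 52419, from 67.0 to 8.22 CPM, and 3.03-fold lower in 53369, from 25.6 to 8.43 CPM. Both Cre libraries thus ended at about the same Irf9 level from unequal parental levels. Its limma adjusted p was 0.0943 and its DESeq2 adjusted p 1.27e-07. Of the other regulatory factors tested, Irf8 was 1.46-fold and 4.58-fold lower, on 11 reads in Cre 53369, Irf1 was 1.33-fold and 1.35-fold lower, Irf2 1.21-fold and 1.09-fold lower, and Irf3 1.04-fold higher in 52419 and 1.23-fold lower in 53369. Only Irf7 and Irf9 were called by DESeq2 among the 6.

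Of the 10 JAK and STAT genes tested, 6 were lower in both pairs (60%, against 31.1%), 0 by 2-fold in both, and DESeq2 called 3 lower, Stat2 and Stat3 among them. Stat2, which type I interferon activates, was at 42.9 and 10.6 CPM in 52419, 4.04-fold lower, and at 15.1 and 9.57 CPM in 53369, 1.57-fold lower. Stat3, which carries gp130 signals, was at 119 and 60.1 CPM in 52419 and 154 and 91.6 CPM in 53369, 1.99-fold and 1.68-fold lower, limma adjusted p = 0.115. Jak3 was 1.99-fold and 2.05-fold lower on 37 to 161 reads a library, and Jak2 1.87-fold and 1.06-fold lower. Stat6 was 1.02-fold lower in 52419 and 1.03-fold higher in 53369, with an interval of the log2 change over both lines from -0.26 to 0.29, and Stat5a, Stat5b and Tyk2 had adjusted p of 0.990 by limma.

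The receptor chains of interferons differed by smaller folds. Ifnar1, a chain of the type I receptor, was 1.13-fold and 1.02-fold lower, with an interval of -0.55 to 0.35, and Ifngr2, a chain of the type II receptor, was 1.31-fold and 1.07-fold lower, with an interval of -0.65 to 0.17. The interferon ligands listed (Ifnb1, Ifne and Ifnk) had 0 to 2 reads in each of the 4 libraries, too few to compare. Among 13 nucleic acid sensors and adaptors tested, 10 were lower in both pairs (76.9%, against 31.1% of all genes), and the 2 RNA helicases Dhx58 (LGP2) and Ddx58 (RIG-I) were lower by 2-fold or more in both (15.4%, against 0.619%). Ddx58 was at 75.1 and 16.2 CPM in 52419 and at 31.4 and 14.7 CPM in 53369, 4.63-fold and 2.13-fold lower, with DESeq2 adjusted p = 0.000893. Mavs, the adaptor of these helicases, was 1.12-fold and 1.10-fold lower, and Sting1, the adaptor of DNA sensing, 1.46-fold and 1.79-fold lower, both with limma adjusted p of at least 0.945.

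Genes of class I antigen presentation, which interferon also raises, had a median log2 change of -0.44 in 52419 and -0.40 in 53369. Of 14 genes tested 11 were lower in both pairs (78.6%, against 31.1% of all genes) and 1 by 2-fold in both (7.14%, against 0.619%). DESeq2 called 0 lower, and limma had 5 lower at an unadjusted p under 0.05 (35.7%, against 3.74%). That 1 was Nlrc5, the transactivator of class I genes, at 2.30 and 0.692 CPM in 52419 and 1.22 and 0.357 CPM in 53369, on 5 to 31 reads a library. B2m, the light chain, was 1.38-fold and 1.14-fold lower, H2-D1, a heavy chain, 1.39-fold and 1.25-fold lower, and the peptide-loading protein Tapbp 1.49-fold and 1.21-fold lower, with limma adjusted p between 0.697 and 0.950.

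Of the receptors and targets linked to STAT3, Osmr, Socs3, Bcl3 and Cebpd were lower by nearly the same fold in both lines. Osmr (chr15:6813568-6874968), the oncostatin M receptor chain, was at 7.36 and 1.15 CPM in 52419 (99 and 15 reads) and at 15.1 and 2.14 CPM in 53369 (197 and 30 reads), 6.38-fold and 7.03-fold lower. Il13ra1, a receptor chain for interleukins 4 and 13, was 4.46-fold and 2.81-fold lower, and the leukaemia inhibitory factor receptor Lifr 1.68-fold and 1.53-fold lower. Il6st (gp130), the chain that Osmr and Lifr pair with, was 1.02-fold and 1.10-fold lower. Socs3, the feedback inhibitor of gp130 signalling, was 2.64-fold lower in 52419, from 35.5 to 13.4 CPM, and 2.52-fold lower in 53369, a log2 change of -1.33 (SE 0.18), limma adjusted p = 0.0943. Bcl3, a nuclear inhibitor-of-kappaB protein, was 2.82-fold and 2.49-fold lower (limma adjusted p = 0.0943), and Cebpd, an acute-phase transcription factor, 2.50-fold and 2.45-fold lower. Of the 16 genes of the STAT3 list, 10 were lower in both pairs (62.5%, against 31.1%), 4 of them by 2-fold or more (Osmr, Socs3, Bcl3 and Cebpd). The list did not move as a whole: Ccnd1 was 1.01-fold and 1.15-fold higher, Mcl1 1.09-fold and 1.16-fold higher, and Timp1 1.44-fold and 1.13-fold lower, each with limma adjusted p = 0.990.

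**Figure D3:**
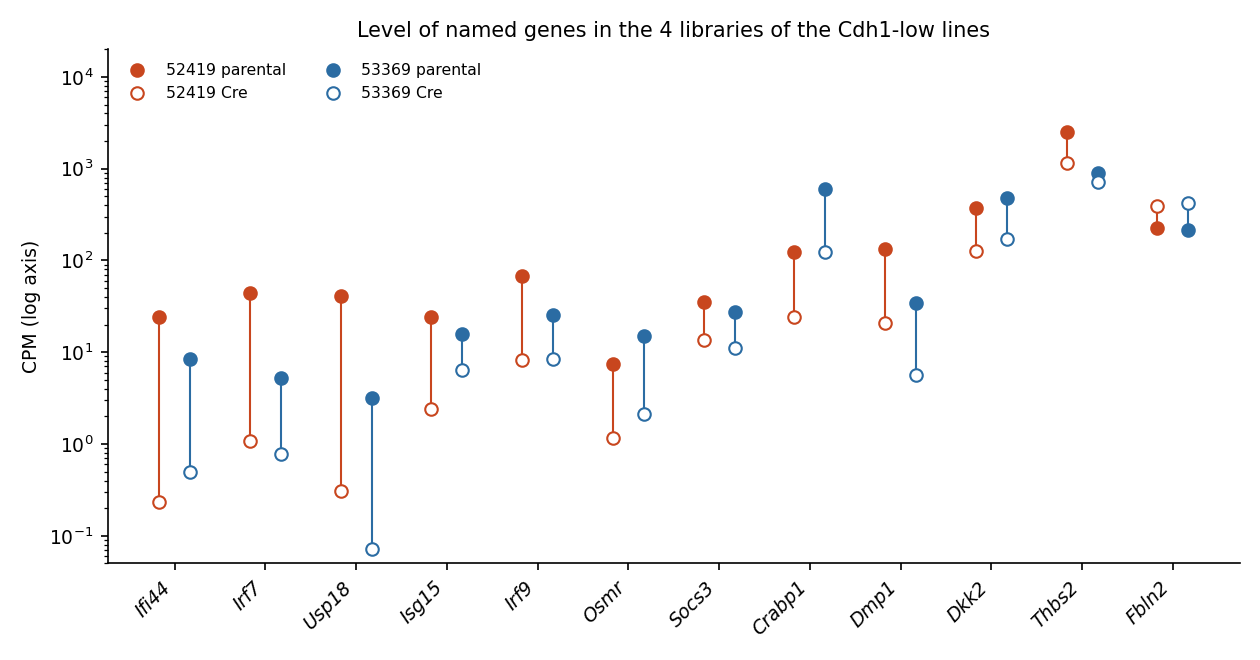
Level in CPM, on a log axis, of 12 named genes in the 4 libraries, filled points for parental and open points for Cre cells, red for 52419 and blue for 53369, with a line joining the pair. The first 11 genes were lower after Cre in both lines, from Ifi44 (24.2 to 0.231 CPM in 52419) to Thbs2, and the last, Fbln2, was higher in both.

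Outside the cytokine lists, Crabp1, Dmp1 and Dkk2 were lower by nearly the same fold in both lines. Crabp1 (chr9:54764748-54773110), which binds retinoic acid in the cytosol, was at 124 and 24.4 CPM in parental and Cre 52419 (1675 and 317 reads) and at 606 and 124 CPM in 53369 (7928 and 1732 reads). It was 5.11-fold and 4.90-fold lower, a log2 change of -2.31 (SE 0.29), limma adjusted p = 0.0943 and DESeq2 adjusted p = 5.11e-20. The Cre library of 53369 was thus at about the level of parental 52419, so the groups nearly meet in level although each pair moved alike. Of 14 retinoid genes tested, 5 were lower and 4 higher in both pairs and Crabp1 alone was 2-fold lower in both; the receptor Rarg was 1.19-fold and 1.07-fold lower.

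Dmp1 (chr5:104197575-104214102), an acidic matrix protein of bone and dentine, was 6.34-fold lower in 52419, from 133 to 21.0 CPM, and 6.15-fold lower in 53369, from 34.7 to 5.64 CPM, a log2 change of -2.58 (SE 0.33), limma adjusted p = 0.0943. Dkk2 (chr3:132085266-132180304), a secreted inhibitor of WNT coreceptors, was at 375 and 126 CPM in 52419 and at 477 and 172 CPM in 53369, 2.97-fold and 2.77-fold lower, limma adjusted p = 0.115. Both Cre libraries were below both parental ones. Its relative Dkk3 was 2.84-fold and 2.23-fold lower, and the DKK receptor Kremen1 1.17-fold and 1.12-fold lower. Of the 7 secreted WNT inhibitors tested these 2 were 2-fold lower in both. Of 7 direct WNT targets 0 were, with 0 at an unadjusted limma p under 0.05 and 0 called by DESeq2. Adgra2, an adhesion receptor that takes part in WNT7 signalling, was 2.04-fold and 1.86-fold lower (limma adjusted p = 0.0943).

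Thbs2 (chr17:14665500-14694262), the matrix protein thrombospondin 2, was at 2493 and 1163 CPM in 52419, 2.14-fold lower, and at 893 and 719 CPM in 53369, 1.24-fold lower. It was not among the shared 2-fold changes, and its log2 change was -0.71 (SE 0.23), limma adjusted p = 0.751. Its relative Thbs1 was 1.25-fold and 1.10-fold higher. Spp1 (osteopontin) was 2.18-fold lower in 52419, from 8408 to 3861 CPM, and 1.78-fold lower in 53369, from 17614 to 9916 CPM, limma adjusted p = 0.814. Tgfbi was 4.60-fold and 1.81-fold lower (DESeq2 adjusted p = 0.0138). Of 17 matricellular genes 5 were lower and 8 higher in both pairs, so this family did not move one way. Col3a1 was 2.13-fold and 2.04-fold lower, and it was the 1 collagen of 21 tested that was 2-fold lower in both; its limma adjusted p was 0.990. Pdgfra, the receptor typical of fibroblasts, was 1.71-fold and 1.91-fold lower (DESeq2 adjusted p = 0.0228). Both are in the list of fibroblast and stellate markers, of which 6 of 9 tested were lower in both pairs (66.7%, against 31.1% of all genes), with medians of -0.63 and -0.59 (all genes 0.01 and 0.00), while Dcn was between 1.21 and 3.44 CPM and Fap at no more than 0.520 CPM in the 4 libraries. The part of such cells in these differences was not tested.

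Few genes were higher by 2-fold or more in both lines. The 5 that were higher by 2-fold or more in both included Acta2 (smooth muscle actin), Edn1 (endothelin), Nat8l (N-acetylaspartate synthase) and Lrrc73. Acta2 was at 2.60 and 5.99 CPM in 52419 and at 3.29 and 17.4 CPM in 53369. Edn1, with 2 reads in parental 52419, went from 0.149 to 2.92 CPM there and from 0.765 to 2.36 CPM in 53369. The 7 genes DESeq2 called higher included Fgd3, Epha4, Nat8l, Dock8, Pmepa1 and Fbln2, of which Nat8l alone was among the 5.

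Fbln2 (chr6:91212460-91272540), a matrix glycoprotein of elastic fibres, was at 226 and 390 CPM in 52419 and at 217 and 418 CPM in 53369, 1.72-fold and 1.92-fold higher, a log2 change of 0.86 (SE 0.15), limma adjusted p = 0.166 and DESeq2 adjusted p = 0.000709. Fgd3, an exchange factor for CDC42, was 2.34-fold and 1.83-fold higher, and Dock8, another such exchange factor, 1.95-fold and 1.79-fold higher. Epha4, an ephrin receptor, was 1.82-fold and 3.94-fold higher, and Pmepa1, a feedback inhibitor of TGF-beta signalling, 1.81-fold and 2.23-fold higher. Of 17 TGF-beta genes on the list 5 were lower and 5 higher in both pairs, and 1 was higher by 2-fold in both.

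Genes of growth and identity differed by smaller folds. Of 20 replication genes 18 were higher in both pairs and of 20 mitosis genes 16, against 33.5% of all genes, but 0 of either list passed an unadjusted p under 0.05 in limma and DESeq2 called 0. Mki67 was 1.22-fold and 1.02-fold higher and the helicase subunit Mcm3 1.52-fold and 1.17-fold higher. Of 20 MYC and ribosome biogenesis genes 17 were higher in both, and 4 of the 20 were higher at an unadjusted limma p under 0.05 (1.76% of all genes). DESeq2 called 0 of them. Rrp12 was 1.84-fold and 1.64-fold higher and Bop1 1.52-fold and 1.35-fold higher, with limma adjusted p of 0.744 and 0.726. Of 14 NRF2 genes 11 were higher in both, for instance Gclm, 1.33-fold and 1.30-fold. Of 18 hypoxia and glycolysis genes 9 were lower in both and 1 higher, with the vasodilator peptide Adm 5.01-fold and 3.67-fold lower on 14 to 88 reads a library. By unadjusted limma p under 0.05, 4 of the 18 were lower (22.2%, against 3.74%), and DESeq2 called 0. Vim was 1.11-fold and 1.18-fold higher, Axl 1.22-fold and 1.05-fold lower and Prrx1 1.43-fold and 1.32-fold lower, each with limma adjusted p of at least 0.819. Cdh1 itself was at 0.372 and 0.615 CPM in 52419, on 5 and 8 reads, and at 17.5 and 36.4 CPM in 53369.

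**Figure D4:**
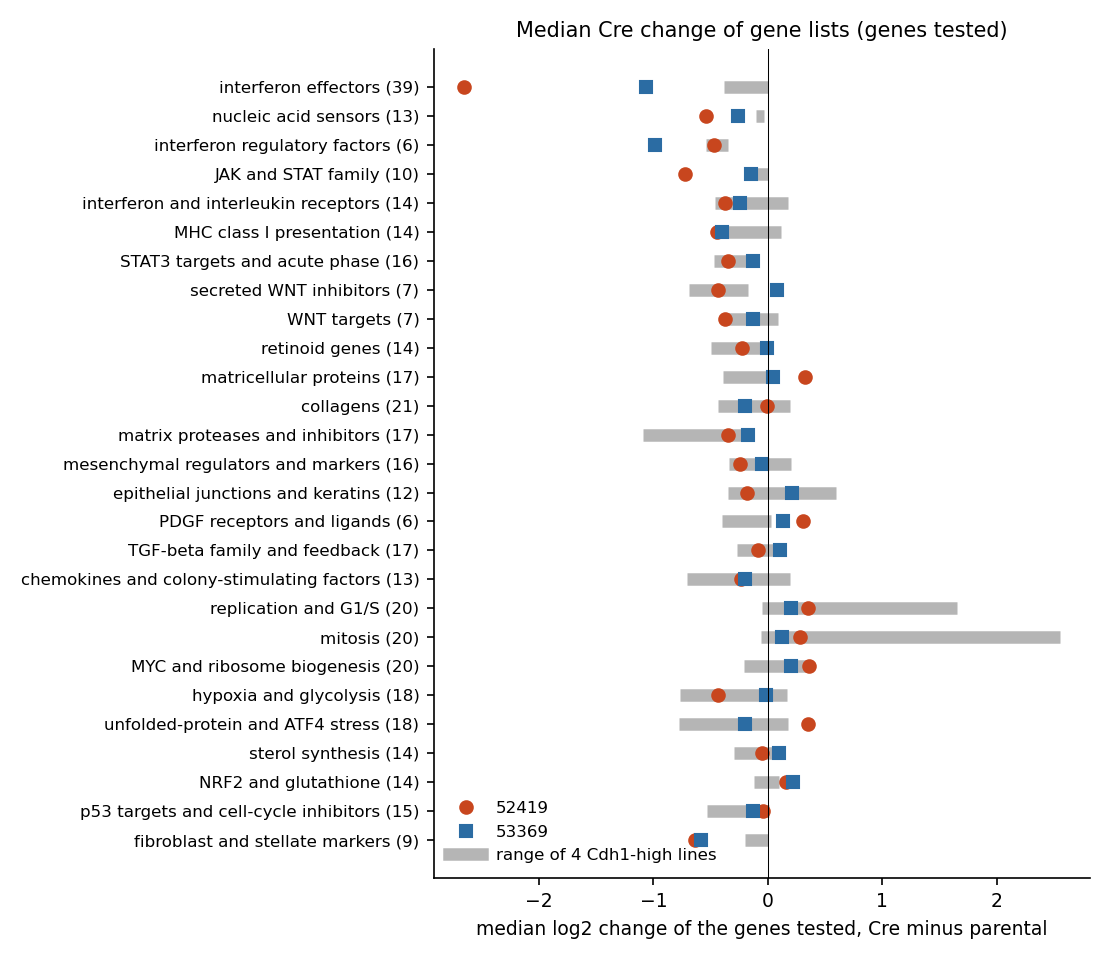
Median log2 change, Cre minus parental, of the genes tested in each list with 5 or more of them (number in brackets), for 52419 (red circles), 53369 (blue squares) and, as a grey bar, the range over the 4 Cdh1-high lines. The interferon effectors stand at -2.66 and -1.06, and most other lists lie within 0.5 of 0 in both Cdh1-low lines; the wide grey bars of replication and mitosis come from the Cdh1-high lines.

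Whether the response differed from that of the 4 Cdh1-high lines was tested as the difference of the 2 Cre terms. By limma 0 genes passed the adjusted threshold in either direction (smallest adjusted p = 0.510). At an unadjusted p under 0.05, 256 genes had the more negative change in the Cdh1-low lines (2.03%) and 201 the more positive one (1.59%). The interferon effectors gave 30 of the 256 from 39 tested, and 0 of the 201, but 14 of the 30 had a mean under 1 CPM in the 8 libraries of the other lines, where little drop can be measured. edgeR called 0 genes and DESeq2 called 5, of which Irf7 and Usp18 were more negative and Fbln2, Pmepa1 and Sulf2 more positive in the Cdh1-low lines. Irf7 differed by -2.78 in log2 change (95% interval -4.21 to -1.36, DESeq2 adjusted p = 0.0191), being lower also in all 4 other lines, by 0.61 to 0.92. Fbln2 differed by 1.28 (0.86 to 1.69, DESeq2 adjusted p = 5.50e-05) and was higher in both Cdh1-low lines and lower in all 4 others. Ifi44 had 0 to 3 reads and Crabp1 1 to 12 reads in each of the 8 other libraries, too few to measure a difference between the classes.

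Other shared genes were lower in the Cdh1-high lines too. Of the 78, 24 were lower in all 4 other lines, and Osmr was the 1 that was at least 2-fold lower in all 4. The share of all genes tested that were lower in all 4 was not counted, so 24 is a description only. For Osmr the difference between the line classes was -0.30 (-1.32 to 0.73), for Dkk2 -0.61 (-1.27 to 0.05), for Il13ra1 -0.49 (-1.17 to 0.19) and for Cebpd 0.30 (-0.53 to 1.12), intervals that hold 0 and do not show that the classes act alike. Thbs2 had the smaller drop in the Cdh1-low lines, with changes of -1.29 to -1.67 in the 4 others, on 3 to 73 reads a library there. Its difference of 0.76 (0.11 to 1.40, not adjusted) did not pass adjustment (limma adjusted p = 0.9998, DESeq2 adjusted p = 0.440). Of the 78 genes, 26 had a mean under 1 CPM in the 8 libraries of the other lines and 52 a mean of at least 1 CPM. Of all 12610 genes tested, 12076 had a mean of at least 1 CPM there. The median change of the 78 in those lines lay between -0.52 and -0.17.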

How the data were processed

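Poly(A) RNA of 12 cultures was sequenced without a strand-marking step, per the labels' protocols. Tools in the submitters' processing notes are featureCounts, edgeR and FastQC 0.11.9, with builds GRCm38 and mm10, and no source used here gives the aligner. The deposited table holds a signal per gene, reads divided by a scaled library size (CPM); all values (100%, tolerance 0.01) were whole multiples of 1 read, so read counts were recovered from the deposited signal, and TMM factors recomputed from them matched to 6.21e-09. Depth was 11.5 to 18.0 M reads. Symbols of 19448 of 20432 Entrez identifiers came from RefSeq (GRCm38.p6) and 11 from GENCODE.

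Genes with a mean of at least 1 CPM over the 4 libraries were tested, 12610 in all, on log2(value + 0.5) with limma-trend (limma 3.58.1, R 4.3.3), 2-sided, with cell line as block. A gene was called at an adjusted p under 0.05 (Benjamini-Hochberg) with the same direction in both pairs. The series pairs libraries of a line; deviations from group means correlated best within a line (0.726 to 0.937, against at most 0.605 with another line). edgeR 4.0.16 and DESeq2 1.42.0 used the recovered counts with the same model; DESeq2 gave no adjusted p for 489 genes. P-values measure the spread between lines, and the fit was tested on simulated data.

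The members and gene lists were chosen with earlier results of these data known. Named genes were the 5 proposed markers (Ifi44, Irf7, Crabp1, Dkk2, Thbs2), Jak1, the 10 lower and 10 higher genes of smallest p, the 5 of smallest p for the difference between line classes in each direction, and from each list the 3 of highest level and 2 of smallest p (8 of highest level for effectors, all regulatory factors, JAKs and STATs). Usp18, Isg15, Rsad2, Igtp, Ifit1, Oasl2, Cebpd, Lifr, Lrrc73, Igfbp3, Trabd2b, Slc7a8, Mme, Mx2, Cmpk2, Gvin1 and Gt(ROSA)26Sor were chosen after their values were seen. A few genes that these rules name are not reported here. Lists of WNT, retinoid, matrix, PDGF, chemokine, stress, sterol, p53 and other cell type genes were counted as well. Floors (3 reads) cover counting error only.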

Additional observations from a re-analysis of the deposited data

Results flagged for a closer look

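Irf7 and Usp18 were flagged because DESeq2 found a more negative change in the Cdh1-low than in the Cdh1-high lines, with differences of -3.26 for Irf7 and -5.72 for Usp18 on DESeq2's log2 scale, the last resting on 4 reads and 1 read in the Cre libraries. Fbln2 (1.27), Pmepa1 (1.36) and Sulf2 (1.69), a sulfatase of heparan sulfate, were flagged for a more positive change by the same test. For Sulf2 the difference came mainly from the other lines, where it was lower by 0.85 to 1.53, while it was 1.19-fold and 1.45-fold higher in the Cdh1-low lines. None of these 5 differences passed in limma or edgeR.

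Over all 12610 genes tested, both Cdh1-low lines moved one way and all 4 Cdh1-high lines the other in 329. DESeq2 called the difference in 2 of these (Fbln2 and Sulf2) and limma in 0. Such a pattern of signs also arises by chance, and whether 329 exceeds that was not tested. Among the genes the text names, Tapbp, Dock8 and Krt8 also had this pattern, without passing an adjusted test of the difference. Tapbp was lower in the Cdh1-low lines and higher in the others, a difference of -0.60 (limma adjusted p = 1). Dock8 was higher in the Cdh1-low lines and lower in the others, a difference of 1.06 (limma adjusted p = 0.794). Krt8 was lower in the Cdh1-low lines, by little and on 11 and 7 reads in 52419, and higher in the others, a difference of -0.60 (limma adjusted p = 1).

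In 6 of the 105 named genes 1 of the 4 Cdh1-high lines stood apart from the other 3 in its log2 change. Chance gives this in about 1 in 20 groups, so a count of this size can come by chance. These were Ifit3 in 52205 (0.69), Irgm1 in 53371 (-0.62), and, in 52424, Dhx58 (-0.58), Tgfbi (0.26), Pdgfra (-0.41) and Edn1 (-0.73).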

How the results depend on the processing

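The count of lower genes in the Cdh1-low lines, 0 in the main test, was 3 with a pseudocount of 2 (Dmp1, Crabp1 and Ifi44), 1 with edgeR, 57 with DESeq2, and 73 when the 4 libraries alone were fitted with the replicate block, which leaves 1 residual degree of freedom. With no replicate block, and so without the pairing, it was 1 (Ifi44). Leaving out 1 pair gave 0 to 13, the 13 (Irf7, Ifi44, Xaf1, Ifit3 and Irf9 among them) coming without 53369, where the single pair 52419 is assumed to vary like the other lines. The count of higher genes, 0, was 7 with DESeq2 and 16 in the 4 libraries alone, and 0 without each pair. The count of more negative differences between line classes, 0, was 2 with DESeq2 and 2 with a pseudocount of 2 (Dmp1 and Crabp1, with at most 15 and 12 reads in any Cdh1-high library, too few to measure a difference), and that of more positive ones 3 with DESeq2; both were 0 without each pair. Of the 78 shared lower and 5 shared higher genes, 44 lower and 0 higher were counted with a pseudocount of 2. The other filters and total-read scaling moved these counts by less than 1.5 times, or left them at 0, and edgeR left all but the count of lower genes at 0. Of 105 named genes 95 kept their sign in all alternatives run. With 1 pair left out, the sign changed, between the fits without 53369 and without 52419, for Irgm1 (-1.87 and 0.11), Irf3 (0.060 and -0.29), Stat6 (-0.023 and 0.048), Stat5b (0.69 and -0.11), Tyk2 (-0.57 and 0.047), Igfbp3 (-1.66 and 1.26), Trabd2b (-1.14 and 1.33), Slc7a8 (-1.14 and 1.27), Mme (1.26 and -1.33) and Gt(ROSA)26Sor (-0.21 and 4.85), each the value of 1 pair. Stat6 was also below 0 with total-read scaling (-0.0078), and Mme above 0 with DESeq2 (0.029). The median of the effectors was -1.06 without 52419 and -2.66 without 53369. With 2 pairs, changes in genes of few reads were not detectable.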

Other observations

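The chemokines, another group of secreted signals, did not move together. Of 13 tested, 6 were lower and 2 higher in both pairs, against 31.1% and 33.5% of all genes. Cxcl10, an interferon-induced chemokine, was 2.29-fold lower in 52419 and 1.23-fold lower in 53369, from 26.4 to 11.5 CPM and from 17.7 to 14.4 CPM. Cxcl12, a chemokine of stromal cells, was 2.18-fold and 1.16-fold higher, from 62.1 to 136 CPM and from 471 to 546 CPM. Pdgfb, the ligand of PDGF receptors, was 1.55-fold and 1.74-fold higher. Of 15 p53 targets and cell-cycle inhibitors 8 were lower and 3 higher in both, with Cdkn1a (p21) 1.73-fold and 1.05-fold lower and Bax 1.27-fold and 1.13-fold higher. Of 18 stress genes of the unfolded-protein and ATF4 responses 2 were lower and 1 higher in both pairs, and of 14 sterol synthesis genes 3 and 4. No gene tested in these lists was 2-fold changed in the same direction in both lines.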
